A study of Mus musculus with 6 samples.

Results

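The Krueppel-like factors described here are 8 genes, Klf2, Klf3, Klf4, Klf6, Klf7, Klf9, Klf10 and Klf13, chosen by name and followed through every probe set annotated to them alone. They are 8 of the 18193 genes measured, and had 30 of the 45037 probe sets tested. The study sorted NK1.1+ natural killer (NK) cells from the spleens of RAG-/- mice, which form no mature T or B cells, into 3 subsets: CD27+CD11b-, CD27+CD11b+ and CD27-CD11b+, commonly placed in this order from less to more mature. All 3 subsets carry the RAG deletion; which RAG gene is deleted, and how old the animals were, is not stated. Each subset was measured on 2 arrays, 6 in all, which the series design calls independent replicates, but no label ties them to separate animals, and the p-values below cover only the variation among these samples, possibly technical.

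Krueppel-like factors are transcription factors that bind CACCC and GC-rich elements through zinc fingers at their carboxyl end, and that differ mainly in the activating or repressing regions before the fingers. In T cells, Klf2 is known for keeping cells quiescent and for inducing receptors used in recirculation, while Klf4 restrains proliferation in several lineages and promotes monocyte differentiation. Klf3 is a repressor that recruits CtBP proteins, Klf10 was found as a gene induced by transforming growth factor beta, and Klf6, Klf2 and Klf4 can be induced quickly by stimulation or stress.

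Promoter windows of the 3 genes with the largest differences between the subsets are shown first, because members of this family bind CACCC elements and are known to act on the promoters of relatives. The RefSeq table (GRCm38.p6) held 7 of the 8 genes, and the 250 bases before the annotated start were read, 5′ to 3′ on the gene's strand. Capitals mark CACCC on either strand (GGGTG on the strand shown). The Klf2 window is chr8:72318812-72319061 on the plus strand, the Klf3 window chr5:64803271-64803520 on the plus strand and the Klf4 window chr4:55532476-55532725 on the minus strand.
Klf2: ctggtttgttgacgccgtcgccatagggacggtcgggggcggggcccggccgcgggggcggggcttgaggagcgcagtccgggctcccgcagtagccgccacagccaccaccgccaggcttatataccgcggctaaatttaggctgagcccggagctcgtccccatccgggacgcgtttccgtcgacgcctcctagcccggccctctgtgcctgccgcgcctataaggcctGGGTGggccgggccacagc
Klf3: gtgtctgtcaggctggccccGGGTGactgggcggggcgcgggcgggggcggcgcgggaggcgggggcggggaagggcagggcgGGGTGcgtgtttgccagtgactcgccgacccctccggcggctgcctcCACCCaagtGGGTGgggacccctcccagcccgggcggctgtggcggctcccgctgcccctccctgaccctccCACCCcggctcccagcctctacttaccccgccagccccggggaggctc
Klf4: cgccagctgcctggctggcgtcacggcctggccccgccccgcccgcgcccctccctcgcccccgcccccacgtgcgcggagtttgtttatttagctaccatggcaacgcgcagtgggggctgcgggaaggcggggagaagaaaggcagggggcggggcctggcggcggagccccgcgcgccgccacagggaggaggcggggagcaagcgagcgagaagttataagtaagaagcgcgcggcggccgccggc
The Klf3 window had 5 CACCC matches, a count reached by 0.7% of 32851 promoter windows of the same length. The Klf2 window had 1 and the Klf4 window 0, and 52.0% of all windows had at least 1. The GC box GGGCGG, searched on both strands, had 2 matches in the Klf2 window, 6 in the Klf3 window and 4 in the Klf4 window, and it was present in 32.7% of all windows. The 3 windows were rich in G and C, at 71.2% for Klf2, 78.4% for Klf3 and 74.0% for Klf4, against a median of 52.4%, so matches to GC-rich letters are frequent in them by composition.

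Values are log2 expression as deposited, made with RMA, a method that subtracts background, brings the arrays to one distribution and gives each probe set 1 value. Means are given ± SD with n = 2 arrays per subset, and differences with the standard error (SE) of a limma fit over all probe sets. A probe set was called at a limma adjusted p under 0.05, with the Benjamini-Hochberg adjustment over all 45037. Levels under 6.52, the 95th percentile over 47 genes specific to other tissues, count as near background, since the values carry no detection calls. A gene's leading probe set is the one with the highest mean, and levels are not compared between probe sets.

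The 10 NK cell genes listed as markers were all above background, and their mean lay between 11.24 and 11.98 on the 6 arrays. Of the other cell types, 2 of 8 T cell, 1 of 7 B cell, 11 of 15 monocyte and macrophage, 5 of 8 neutrophil and 0 of 8 stromal genes were above background in at least 1 subset. So were 3 of 7 dendritic cell, 2 of 5 erythroid and 1 of 4 megakaryocyte and platelet genes. The treatment label of CD27-CD11b+ replicate 1 names the CD27+CD11b- gate, while its title names CD11b+ CD27- cells, and the title decided its group here. Its Itgam (CD11b) value was 9.93 and its Cd27 value 6.96, beside 9.44 and 6.47 in CD27-CD11b+ replicate 2. The mean of these 2 genes, which does not tell them apart, was 8.44 on CD27-CD11b+ replicate 1 and 7.96 on replicate 2. It was 7.58 and 6.96 in CD27+CD11b-, and 8.80 and 8.11 in CD27+CD11b+. Every difference that involves CD27-CD11b+ rests on its replicate 1, so the members were refitted without that array. The lone CD27-CD11b+ array left was assumed to vary like the others. Of the 30 member differences, 4 at the loss of CD27 and 5 in the comparison with CD27+CD11b- then had another sign, all of them uncalled, and 0 passed in either. Values without it stand beside the differences described below for the members' leading probe sets. A group of 3 probe sets with no gene name divided the arrays across the subsets: they averaged 12.57 to 12.81 on the on arrays, which are replicate 2 of both CD27+ subsets and replicate 1 of CD27-CD11b+, and 4.33 to 4.47 on the off arrays, which are the rest. Each side holds 1 array of every subset, so each difference could also be taken within the on and within the off arrays. Over all probe sets, the gap between replicates 1 and 2 correlated at 0.611 between the CD27+ subsets. The gap in CD27-CD11b+ correlated at only 0.0601 with that in CD27+CD11b+ and -0.0754 with that in CD27+CD11b-. Over the whole array, the division was thus hardly shared by CD27-CD11b+.

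Klf2 was highest and Klf4 lowest in CD27-CD11b+ cells, the subset with CD11b alone, and Klf3 was higher there than in both CD27+ subsets. None of the 30 probe sets passed the limma test over all probe sets in any comparison. In the comparison of CD27-CD11b+ with CD27+CD11b- cells, the outer comparison, the test called 288 of 45037 probe sets (0.639%), and 8 of the 30 had an unadjusted p under 0.05, against 14.9% of all probe sets. With 1 probe set per gene and p-values adjusted over 18193 genes, 617 genes (3.39%; 2.24% higher and 1.15% lower) passed and 3 of the 8 did: Klf2 and Klf3 higher and Klf4 lower in CD27-CD11b+ cells. With the on and off division described above as a block, 0.955% of all probe sets passed (0.504% higher and 0.451% lower), and so did 3 of the 30, those of Klf2 and Klf4. Over all 30, 25 differences were positive and 5 negative, with a median of 0.27 against -0.01 for all probe sets and 0.14 for all above background, where 23 of the 30 lie. The arrays of the outer subsets did not overlap for 14 of the 30 with CD27-CD11b+ higher, where 24% of all probe sets did so, and for 2 with CD27-CD11b+ lower, where 22.8% did. The 30 are repeated readings of 8 genes and are not independent. Among the 8 leading probe sets, 7 differences were positive and 1 negative, and 4 had a limma unadjusted p under 0.05. The outer arrays of these 8 did not overlap for 4 with CD27-CD11b+ higher and 1 with it lower. In bulk samples, a change in the share of cells with a transcript and a change in its amount per cell cannot be told apart.

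**Figure D1:**
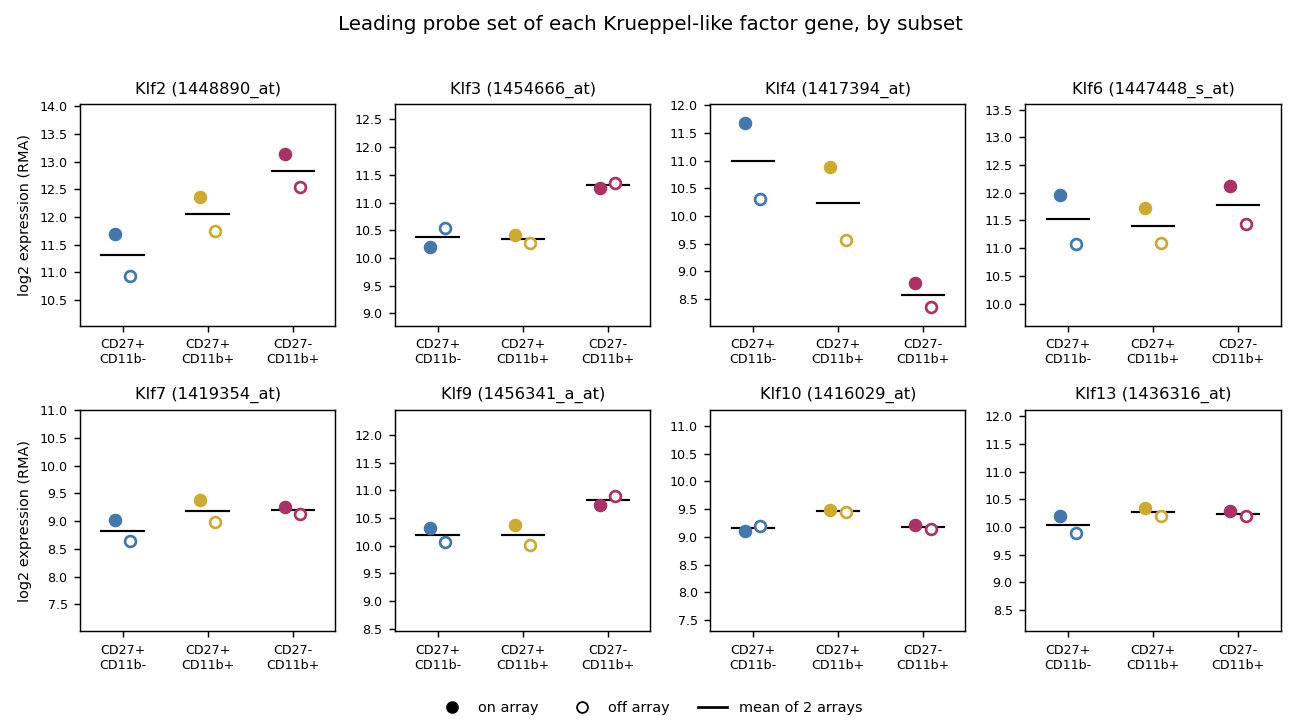
Log2 expression (RMA) of the leading probe set of each of the 8 genes on the 6 arrays, by subset; filled circles are on arrays, open circles off arrays, and lines the mean of 2 arrays, with every panel spanning 4 log2 units. Klf2 climbs to 12.83 in CD27-CD11b+, Klf4 is at 8.57 there, and Klf10 and Klf13 stay within 0.46 log2 units over all 6 arrays.

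Klf2, a regulator of lymphocyte quiescence and trafficking, was measured by 1 probe set. It read 10.94 and 11.69 in CD27+CD11b-, 11.74 and 12.35 in CD27+CD11b+, and 13.13 and 12.54 in CD27-CD11b+. The 3 subsets did not overlap, although the highest CD27+CD11b- array lay only just under the lowest CD27+CD11b+ array. The means were 11.32 ± 0.53, 12.05 ± 0.43 and 12.83 ± 0.42 (SD, n = 2 each), in the same order. CD27-CD11b+ exceeded CD27+CD11b- by 1.52 (SE 0.34), a 2.87-fold difference, with limma adjusted p = 0.126 over all probe sets and 0.0448 over genes. Without CD27-CD11b+ replicate 1 the difference was 1.22 (SE 0.38, limma adjusted p = 0.325), and with 1 array left out it ranged from 1.15 to 1.89. It was 1.45 within the on arrays and 1.59 within the off arrays. CD27+CD11b+ exceeded CD27+CD11b- by 0.73 and CD27-CD11b+ exceeded CD27+CD11b+ by 0.79 (SE 0.34 each), and neither passed (limma adjusted p = 1.0 and 0.594). With 1 array left out the first of these ranged from 0.36 to 1.11 and the second from 0.48 to 1.09, and without CD27-CD11b+ replicate 1 the second was 0.49 (SE 0.38). So the order of neighbouring subsets is not resolved beyond the spread of these arrays.

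Klf4, a factor of monocyte differentiation and of cell cycle restraint, had the largest difference among the 8 genes, and in the opposite direction. Its leading probe set read 10.31 and 11.68 in CD27+CD11b-, 9.57 and 10.88 in CD27+CD11b+, and 8.79 and 8.35 in CD27-CD11b+. Both CD27-CD11b+ arrays lay under all 4 CD27+ arrays, while the CD27+ subsets overlapped. CD27-CD11b+ averaged 8.57 ± 0.31 and CD27+CD11b- 10.997 ± 0.97 (SD, n = 2 each), a difference of -2.43 (SE 0.56), or 5.38-fold lower. The limma adjusted p was 0.131 over all probe sets and 0.0455 over genes. The second probe set of Klf4, designed from the same sequence record, averaged 6.87 in CD27-CD11b+ against 8.52 in CD27+CD11b-, a difference of -1.66 (SE 0.54, limma adjusted p = 0.240). The 2 probe sets followed each other over the 6 arrays (r = 0.985), as a description of 6 points that share their subsets. CD27-CD11b+ differed from CD27+CD11b+ by -1.66 (SE 0.56, limma adjusted p = 0.481) on the leading probe set, and by -1.87 without CD27-CD11b+ replicate 1. CD27+CD11b+ differed from CD27+CD11b- by -0.77 (SE 0.56, limma adjusted p = 1.0). How the difference divides over the steps depends on single arrays: with 1 left out, the value at the loss of CD27 ranged from -2.31 to -1.002 and that at the gain of CD11b from -1.46 to -0.08. Without CD27+CD11b+ replicate 2 the gain of CD11b, at -1.43, had the larger value. The steps themselves were not shown to differ (difference -0.89, SE 0.97, limma adjusted p = 1.0).

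Klf4 also had the widest gap between arrays of one subset. Within CD27+CD11b- the on array exceeded the off array by 1.37, within CD27+CD11b+ by 1.31 and within CD27-CD11b+ by 0.43. The outer difference was -2.90 within the on arrays and -1.96 within the off arrays, and -2.64 (SE 0.70) without CD27-CD11b+ replicate 1. Because Klf4 is a monocyte gene, the 15 monocyte and macrophage markers are set beside it: their mean was 7.05 on the on array and 5.62 on the off array of CD27+CD11b-, 7.42 and 6.48 in CD27+CD11b+, and 7.35 and 6.38 in CD27-CD11b+. In the outer comparison the median marker differed by 0.42 and Klf4 by -2.43. By subset means, Clec7a, Fcgr1, Ms4a7 and Vcan were near background, although Clec7a read 6.90, 7.12 and 6.72 on the on arrays, and Csf1r, the receptor that defines the lineage, read 8.41 to 10.72. The part of such transcripts in the Klf4 level was not tested.

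Klf3, the CtBP-recruiting repressor, had 7 probe sets, of which 5 were above background in at least 1 subset. The leading one read 10.54 and 10.20 in CD27+CD11b-, 10.27 and 10.41 in CD27+CD11b+, and 11.27 and 11.35 in CD27-CD11b+. The CD27+ subsets overlapped and both CD27-CD11b+ arrays lay above them. CD27-CD11b+ averaged 11.31 ± 0.06 and CD27+CD11b+ 10.34 ± 0.10 (SD, n = 2 each), a difference of 0.97 (SE 0.16), or 1.96-fold, with limma adjusted p = 0.237 over all probe sets and 0.0802 over genes. Against CD27+CD11b- the difference was 0.94 (SE 0.16), with limma adjusted p = 0.0795 over all probe sets and 0.0288 over genes, and 0.98 without CD27-CD11b+ replicate 1, as the difference from CD27+CD11b+ was 1.01. CD27+CD11b+ differed from CD27+CD11b- by -0.03 (SE 0.16). The second step exceeded the first by 0.999 (SE 0.28), which did not pass (limma adjusted p = 1.0).

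The Klf3 probe sets did not all show the same step. Probe set 1421604_a_at read 6.25 and 6.44 in CD27+CD11b-, 7.12 and 6.95 in CD27+CD11b+, and 8.09 and 7.42 in CD27-CD11b+, higher at each step, with an outer difference of 1.41 (SE 0.24, limma adjusted p = 0.0740). Probe set 1429360_at differed by 1.16 (SE 0.20, limma adjusted p = 0.0756) and probe set 1441200_at by 0.55 (SE 0.23). Probe set 1431630_a_at, at 8.54 in CD27-CD11b+ against 8.31 in CD27+CD11b-, differed by only 0.22 (SE 0.17). Of the 2 near background, 1442920_at was higher by 0.81 (SE 0.16) and 1458487_at differed by -0.09 (SE 0.27). Correlations between the 5 above background ranged from 0.144 to 0.919 over the 6 arrays. Those of Klf6, which also had 5 such probe sets, ranged from 0.777 to 0.985. Without CD27-CD11b+ replicate 1, the outer differences of 1421604_a_at, 1429360_at and 1441200_at were 1.07, 1.04 and 0.89, and that of 1431630_a_at was 0.10. The outer difference of Klf3 was thus positive on 6 of 7 probe sets, with sizes that depend on the probe set.

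**Figure D2:**
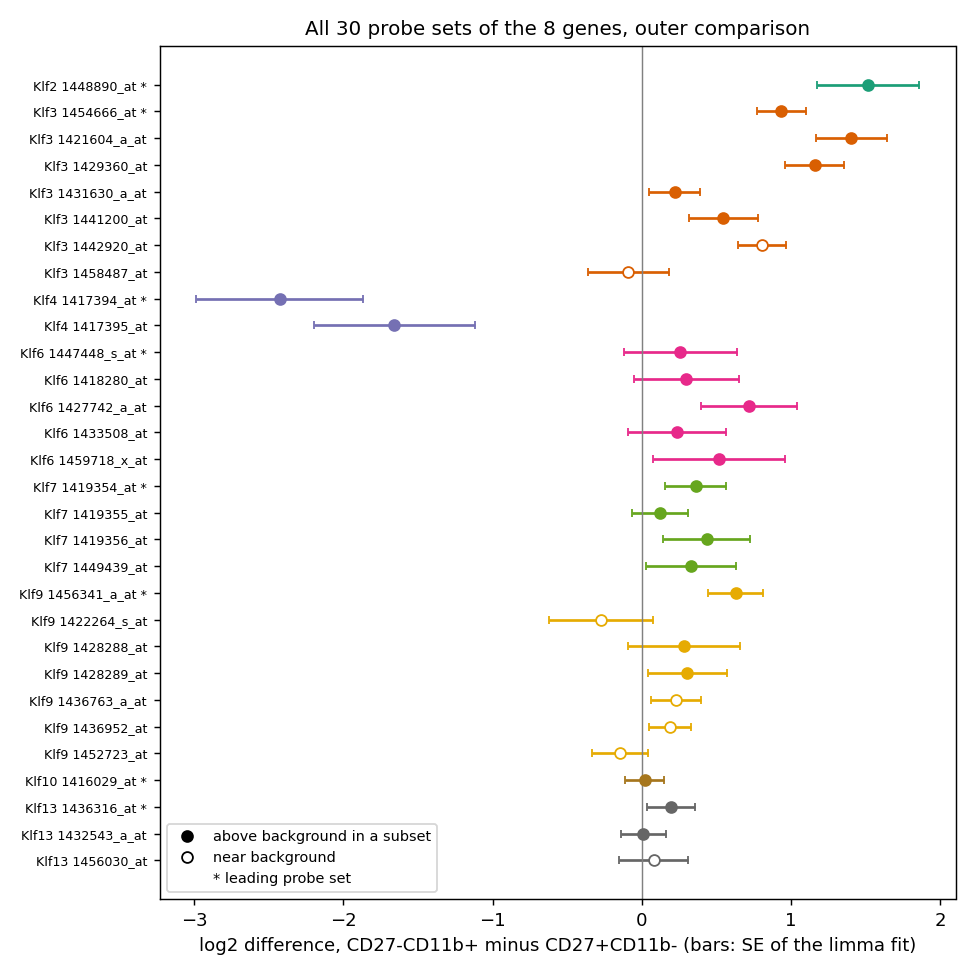
Log2 difference, CD27-CD11b+ minus CD27+CD11b-, for all 30 probe sets, with bars for the SE of the limma fit; filled points are above background in a subset, open points near background, and asterisks mark leading probe sets. Both Klf4 probe sets lie at or under -1.66, while Klf2 and 3 probe sets of Klf3 lie at or above 0.94.

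Klf9, a factor induced by glucocorticoid and thyroid hormones, had the next largest difference among leading probe sets. Its leading probe set read 10.06 and 10.32 in CD27+CD11b-, 10.005 and 10.37 in CD27+CD11b+, and 10.74 and 10.90 in CD27-CD11b+. Both CD27-CD11b+ arrays lay above the 4 CD27+ arrays, which overlapped each other. The difference from CD27+CD11b+ was 0.63 (SE 0.18, limma adjusted p = 0.402) and that from CD27+CD11b- also 0.63 (SE 0.18, limma adjusted p = 0.196), and neither passed over genes (limma adjusted p = 0.248 and 0.112). Both were 0.71 without CD27-CD11b+ replicate 1. The other 2 probe sets above background, which share a sequence record, differed from CD27+CD11b- by 0.28 (SE 0.38) and 0.31 (SE 0.27) with overlapping arrays, and 4 probe sets were near background. Within the on arrays these 2 differed by -0.10 and -0.03, against 0.66 and 0.64 within the off arrays.

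Klf6, a widely expressed factor that responds quickly to stimulation, showed little difference between subsets. Its leading probe set, whose name marks possible matches to more than 1 transcript, read 11.08 and 11.96 in CD27+CD11b-, 11.09 and 11.72 in CD27+CD11b+, and 12.11 and 11.44 in CD27-CD11b+. The outer difference was 0.26 (SE 0.38, limma adjusted p = 0.807), and -0.08 without CD27-CD11b+ replicate 1. The subsets overlapped on this probe set. What separated the arrays of Klf6 was the on and off division: the on arrays read 11.96, 11.72 and 12.11 and the off arrays 11.08, 11.09 and 11.44, with no overlap. The on arrays lay above the off arrays in this way on 4 of its 5 probe sets, and on 7.15% of all probe sets and 11.1% of those above background. Outer differences of the other 4 probe sets ranged from 0.24 to 0.72, and the highest, on 1427742_a_at, had limma adjusted p = 0.368, with both CD27-CD11b+ arrays above both CD27+CD11b- arrays. It was 0.28 without CD27-CD11b+ replicate 1.

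Klf7, known from developing neurons, had 4 probe sets that share 1 sequence record, all above background. The leading one read 8.63 and 9.03 in CD27+CD11b-, 8.99 and 9.39 in CD27+CD11b+, and 9.26 and 9.13 in CD27-CD11b+. CD27-CD11b+ exceeded CD27+CD11b- by 0.36 (SE 0.21, limma adjusted p = 0.477), and the 4 probe sets differed by 0.12 to 0.43. The difference between CD27-CD11b+ and CD27+CD11b+ was 0.01 (SE 0.21). Without CD27-CD11b+ replicate 1 they were 0.30 and -0.06 on the leading probe set.

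Klf10 and Klf13 varied least. Klf10 read 9.20 and 9.11 in CD27+CD11b-, 9.45 and 9.48 in CD27+CD11b+, and 9.21 and 9.13 in CD27-CD11b+, so the double positive arrays lay above all others. They exceeded CD27+CD11b- by 0.31 (SE 0.13, limma adjusted p = 1.0), and CD27-CD11b+ differed from them by -0.29 (SE 0.13, limma adjusted p = 0.608). Neither passed, nor did the contrast of the 2 steps (-0.60, SE 0.23, unadjusted p = 0.0361, limma adjusted p = 1.0), and the outer subsets differed by 0.02 (SE 0.13). Klf13, known in human T cells as an activator of the chemokine gene CCL5, read 9.88 and 10.20 in CD27+CD11b-, 10.20 and 10.35 in CD27+CD11b+, and 10.28 and 10.19 in CD27-CD11b+ on its leading probe set, an outer difference of 0.20 (SE 0.16, limma adjusted p = 0.636). The outer differences were -0.02 for Klf10 and 0.15 for Klf13 without CD27-CD11b+ replicate 1, and that of Klf10 at the loss of CD27 was -0.33. Ccl5 itself read 13.95 to 14.26 on all 6 arrays.

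Over the separate steps, the counts for the 30 probe sets of the 8 genes were as follows. At the gain of CD11b, 18 of the 30 differences were positive and 12 negative, and 0 passed, as for all probe sets (0%). Only 1 of the 30 had an unadjusted p under 0.05, against 2.97% of all probe sets, and with 1 probe set per gene 0 of the 8 genes passed where 0.121% of genes did. At the loss of CD27, 21 were positive and 9 negative and 0 passed, where 0.04% of all probe sets did. There 7 of the 30 had an unadjusted p under 0.05, against 8.72% of all, and over genes 0 of the 8 passed, against 0.297%. With the on and off block, 0 of the 30 passed at this step, against 0.0111% of all. The test of the difference between the steps called 0 of 45037 probe sets with limma, 1 gene with 1 probe set per gene, and 1146 probe sets (2.54%) had an unadjusted p under 0.05.

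The on and off division ran through most of the 30 member probe sets. Of the 30 probe sets, 17 were higher on the on array in all 3 subsets and 0 were lower in all 3, while of all probe sets 17.7% were higher and 14.9% lower in all 3. Among those above background, 15 of the 23 members were higher in all 3 and 0 lower, against 28% and 9.84% of all such probe sets. Among these were the Klf2 probe set, both of Klf4, all 5 of Klf6, all 4 of Klf7, 1 of 3 of Klf9 and both of Klf13. Neither Klf10 nor any of the 5 Klf3 probe sets above background behaved so. For Klf2 the on array exceeded the off array by 0.75 in CD27+CD11b-, by 0.61 in CD27+CD11b+ and by 0.60 in CD27-CD11b+. Outside the members, Klf11 and Klf12 did not behave so on their leading probe sets. In the same order of subsets, on minus off was 0.23, -0.49 and -0.46 for Klf11 and -0.14, 0.45 and -0.21 for Klf12. The division was read from the data, so no test is given.

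**Figure D3:**
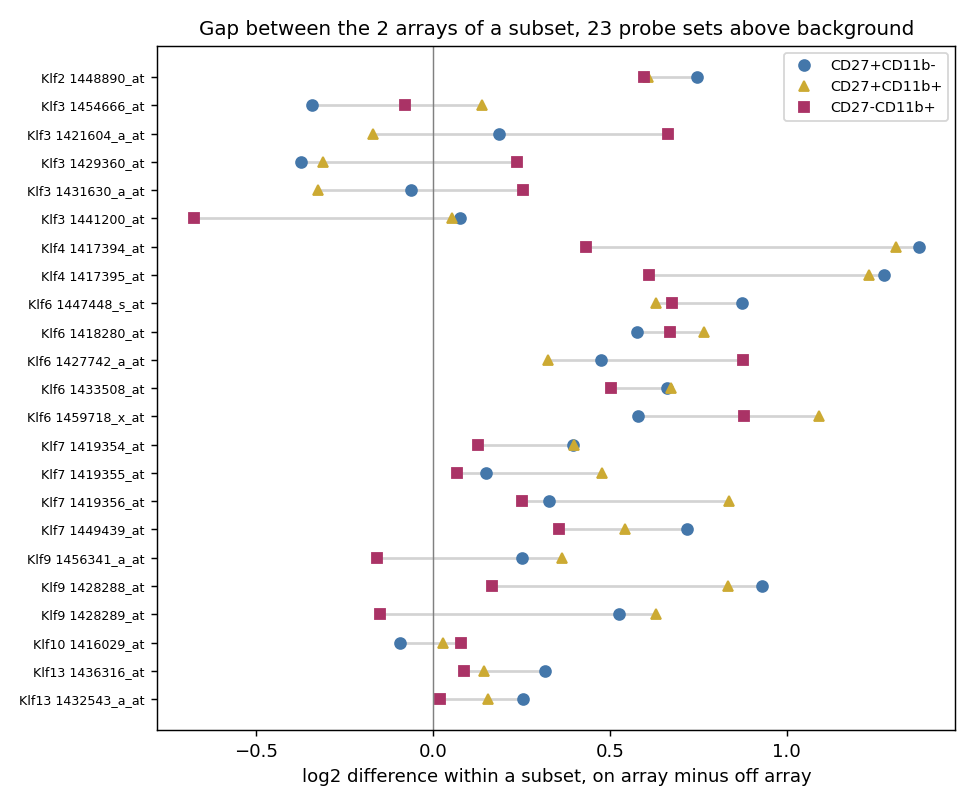
Log2 difference between the on and the off array of each subset for the 23 probe sets above background, with a marker per subset. All points of Klf2, Klf4, Klf6 and Klf7 lie right of 0, and those of Klf3 lie on both sides.

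Other lists moved with the division. The mean of 18 immediate early genes, which are induced within minutes of stimulation, was 10.62, 10.87 and 10.74 on the on arrays in the order of the subsets, against 10.06, 10.45 and 10.20 on the off arrays. The 8 neutrophil markers averaged 7.24, 7.48 and 7.39 on the on arrays and 5.998, 6.59 and 6.62 on the off arrays. Ngp, a granule gene, read 9.36, 9.52 and 8.99 on the on arrays and 7.11, 8.32 and 8.18 on the off arrays, and S100a8, Camp, Ltf and S100a9 were also above background, while Elane, Mmp8 and Mpo were near background on all 6 arrays. Of the immediate early genes 0 passed in any comparison, and after Myc the largest outer differences were in Ier2 (1.04, SE 0.19, limma adjusted p = 0.0891) and Btg2 (0.94, SE 0.33, limma adjusted p = 0.261). The 15 cell cycle genes went the other way, at 7.88, 7.37 and 6.93 on the on arrays and 9.06, 8.61 and 7.23 on the off arrays. Of these 0 passed either, with an outer median of -1.58. With the on and off block, which was chosen after seeing the data, 4 of the 15 fell in the outer comparison, against 0.451% of all probe sets. Other cell type lists, mostly near background, also kept 1 sign. In the order of the subsets, on minus off was 0.55, 0.45 and 0.25 for megakaryocyte and platelet genes and 0.08, 0.05 and 0.25 for dendritic cell genes. It was -0.58, -0.68 and -0.56 for erythroid genes and -0.32, -0.42 and -0.07 for T cell genes. The NK cell, B cell and stromal lists did not keep 1 sign. The part of all these lists in the levels of the family was not tested.

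**Figure D4:**
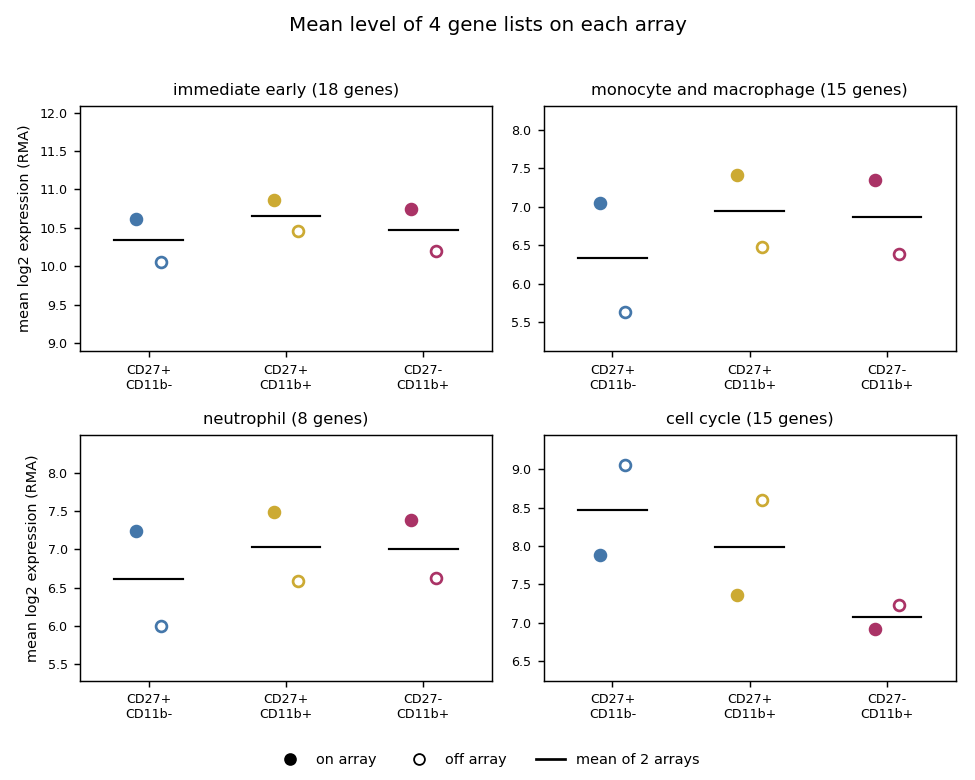
Mean log2 expression (RMA) of 4 gene lists on each array, by subset; filled circles are on arrays, open circles off arrays, and lines the mean of 2 arrays. Immediate early, monocyte and neutrophil lists are higher on the on array of every subset, and the cell cycle list is lower.

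Of the other Krueppel-like genes, 8 of 9 listed were measured, and Klf11 and Klf12 were above background. Klf12, a repressor related to Klf3, was the only one that passed: its leading probe set rose to 9.20 and 9.41 in CD27-CD11b+, against 7.99 and 7.85 in CD27+CD11b-, a difference of 1.39 (SE 0.19, limma adjusted p = 0.0463), but not with the on and off block (limma adjusted p = 0.0552). A second Klf12 probe set, 1439846_at, rose by 1.43 (SE 0.15, limma adjusted p = 0.0244, and 0.0292 with the block). Another, 1439847_s_at, was higher by 1.04 (SE 0.17, limma adjusted p = 0.0740, and 0.0484 with the block). These Klf12 differences were 1.498, 1.46 and 1.22 without CD27-CD11b+ replicate 1, and none then passed (limma adjusted p = 0.123, 0.0946 and 0.116). Probe sets 1422227_at and 1441040_at of Klf12, both near background, differed by -0.14 and 0.17 with all arrays. Klf11, a relative of Klf10, read 8.84 and 9.30 in CD27-CD11b+, against 7.96 and 8.19 in CD27+CD11b-, a difference of 0.99 (SE 0.24, limma adjusted p = 0.139). The list of 8 had a median difference of 0.04, against -0.01 for the leading probe sets of all genes. Klf16 and Klf15, both near background, differed by 0.47 and -0.43.

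Of 9 listed Sp genes, which share the zinc finger type and bind GC boxes, 7 were measured. Sp1, Sp3 and Sp4 were above background, and 0 passed in any comparison. Among leading probe sets the largest outer differences were in Sp3, at 0.45 (SE 0.18, limma adjusted p = 0.318), and in Sp1, at 0.29 (SE 0.16, limma adjusted p = 0.467). Another Sp1 probe set, 1454852_at, differed by 0.51 (SE 0.14, limma adjusted p = 0.174). Sp5, near background, differed by -0.23.

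**Figure D5:**
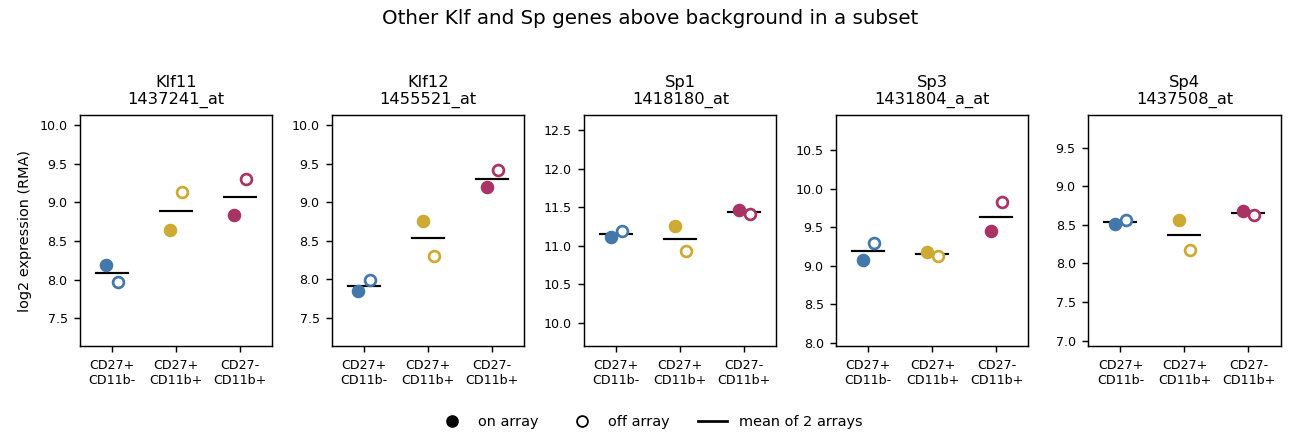
Log2 expression (RMA) of the leading probe sets of Klf11, Klf12, Sp1, Sp3 and Sp4 by subset; filled circles are on arrays, open circles off arrays, and lines the mean of 2 arrays, with every panel spanning 3 log2 units. Klf12 reads 9.20 and 9.41 in CD27-CD11b+, above all CD27+ arrays.

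Regulators and partners of the family were measured for all 17 listed genes, all above background, and 0 passed in any comparison. Their median outer difference was -0.02, against -0.01 for all genes and 0.14 for all probe sets above background. The largest were Foxo3, a forkhead factor (0.64, SE 0.22, limma adjusted p = 0.260), Ctbp2, a corepressor bound by Klf3 (-0.51, SE 0.24, limma adjusted p = 0.397), and Mapk7, the kinase ERK5 that acts upstream of Klf2 in endothelium (0.49, SE 0.18, limma adjusted p = 0.274). Foxo1, an activator of Klf2 in T cells, differed by -0.39 (SE 0.25).

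Genes known as targets of the family in other cells gave 12 measured of 14 listed, with 0 past the test in any comparison and an outer median of -0.08. The largest difference was in Myc, a transcription factor of cell growth that Klf2 and Klf4 repress in T cells, at 8.03 and 7.41 in CD27-CD11b+, against 8.55 and 9.03 in CD27+CD11b- (-1.07, SE 0.29, limma adjusted p = 0.175, and 0.0406 with the on and off block). The Myc difference was -1.38 without CD27-CD11b+ replicate 1 (limma adjusted p = 0.196). Tgfb1 differed by -0.75 (SE 0.27) and Lgals3, a gene repressed by Klf3 in mouse cells, by -0.74 (SE 0.16, limma adjusted p = 0.110). S1pr1, the recirculation receptor induced by Klf2 in T cells, differed by 0.15 (SE 0.25, limma adjusted p = 0.832), with 7.55 and 7.51 in CD27-CD11b+ against 7.64 and 7.11 in CD27+CD11b-.

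The genes whose 6 values were most like those of a leading probe set were sought among 1367 genes above background with a range of at least 1, for the 4 members with such a range. Klf2 was followed most closely by Fasl, the death ligand (r = 0.995), Dram1 (0.995) and Fbxl4 (0.990). Klf4 was followed by Cd300lf (r = 0.998), the signalling scaffold Ksr1 (0.994) and the amino acid transporter Slc7a5 (0.993). The genes nearest to Klf3 were Zfp101, Crebrf and Zfp729b (r = 0.988, 0.987 and 0.983), and those nearest to Klf6 were Itgae, Sdc4 and Fam172a (0.978, 0.976 and 0.971). These correlations are over 6 arrays that share subsets and the on and off division, and they were picked from many. Level and range were screened on the same 6 values, so the search favoured genes that change between arrays. By subset means, Dram1 and Itgae were above background only in CD27-CD11b+ (7.11 and 7.21). Slc7a5 was above it only in CD27+CD11b- (6.78).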

How the data were processed

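RNA of 3 sorted NK cell subsets, 2 arrays each, was measured on Affymetrix mouse arrays. The deposited table holds log2 values for 45101 probe sets, processed by the authors with RMA, per the submitters' processing notes; the log2 scale was read from the range, 2.60 to 14.72, and array medians lay between 5.26 and 5.36. RMA removes shifts shared by most genes and compresses dim differences. The number of arrays limits the precision.

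Control probe sets (64) were left out. The array annotation gave 34945 probe sets 1 gene symbol, 932 several and 9160 none; none was named from several. limma 3.58.1 (R 4.3.3) fitted 1 mean per subset to all 45037 probe sets (3 residual and 3.34 prior degrees of freedom), with Benjamini-Hochberg adjustment. Scripts were tested on simulated data. There, at the loss of CD27, 4.8% of 2-fold and 54.8% of 4-fold changes were recovered, so most simulated 2-fold changes went uncalled. Named genes are all 30 member probe sets, list genes that passed or otherwise up to 3 with the largest outer difference, markers, and the 3 genes most like each member. Genes named outside this rule (Klf11, Klf15, Klf16, Foxo1, S1pr1, Ccl5, Csf1r and near-background markers) were chosen for their known role or after their values were seen. The members and lists were chosen with earlier results of these data known. Deviations of same-numbered arrays correlated at 0.611 between the CD27+ subsets, but at 0.0601 and -0.0754 in the pairs with CD27-CD11b+, so the numbers were not taken to pair samples. Alternatives were blocks, 1 probe set per gene, a trended prior, a background filter, an added constant, median centring and each array left out.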

Additional observations from a re-analysis of the deposited data

How the results depend on the processing

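No result for a family member reversed a call under any setting, and 0 member calls were made in the first place. In the outer comparison, 3 of the 8 members were called with 1 probe set per gene (Klf2, Klf3, Klf4), against 3.39% of all genes. With the on and off division as a block, 3 of 30 member probe sets were called, against 0.955% of all probe sets. These were Klf2 at limma adjusted p = 0.0177 and both of Klf4 at 0.0292 and 0.0403, with a block chosen after seeing the data. The trended prior called 1 (Klf3, 0.0454), against 0.993% of all probe sets, and the replicate block 1 (Klf3 1429360_at, 0.0384), against 0.866% (390). Leaving out 1 array gave 0 or 1 (Klf3 1421604_a_at, 0.0190, without CD27-CD11b+ replicate 2, where 2.16% of all were called). At the steps, no setting run called a member. Of 1083 member differences refitted under other settings, 63 uncalled ones had another sign. Many of the 1083 could not change sign, so the share is no measure of stability. The blocks, the trended prior, 1 probe set per gene and the background filter leave a difference as it is. So does leaving out an array of a subset that is not compared.

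Over all probe sets, the 0 called at the gain of CD11b became 22 with 1 probe set per gene and 13 with the trended prior. The 18 at the loss of CD27 became 54 and 40, 5 with the on and off block, 11 with the replicate block and 2 after adding 32 to the linear values. The 288 of the outer comparison became 617, 447 and, after adding 32, 127. With 1 array left out the counts ranged from 0 to 0, 0 to 415 and 18 to 971, with both highest counts without CD27-CD11b+ replicate 2. At the loss of CD27, 3 were called without CD27-CD11b+ replicate 1 and 0 without any of the CD27+ arrays. The outer count was 23 and 18 without CD27+CD11b- replicates 1 and 2, 68 without either CD27+CD11b+ array and 73 without CD27-CD11b+ replicate 1. The difference between the steps became 1 with 1 probe set per gene and ranged from 0 to 0 with 1 array left out. A block planned from sex-linked transcripts was not run, because these did not divide the arrays. A lone array of a subset was assumed to vary like the others. The causes of these changes were not tested. Keeping only probe sets above background gave 17 and 283 calls, close to the 18 and 288.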
